A study of Sus scrofa with 12 samples.

Results

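The pregnancy difference in Yorkshire endometrium was described from 6 of the 12 arrays of the study, 3 from pregnant and 3 from non-pregnant Yorkshire sows on Day 14 after insemination. The 6 arrays were chosen by the genotype label Yorkshire (YY), whatever their values. The study also held 6 Landrace sows, 3 of each status, which entered the shared estimate of the spread and are given only as context. Each sow was a separate animal with 1 array, and sows are named by the numbers in their labels: pregnant sows 2, 4 and 12, and non-pregnant sows 1, 3 and 11. The non-pregnant sows had been inseminated too, with inactivated semen. The uterine horns were flushed, and 3 positions along each horn gave endometrium free of the muscle layer, so that a sample mixes luminal and glandular epithelium, stroma, vessels and immune cells. The labels give no age and no count of conceptuses. Values are RMA log2 intensities of 23999 probe sets, of which 10069 carried 1 gene symbol and stood for 6765 genes.

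In the pig, the conceptus elongates and secretes oestrogen before it attaches, and this signal keeps the corpora lutea alive. The luminal epithelium answers with a set of secreted proteins, growth factors and transporters, the glands release histotroph that feeds the unattached conceptus, and vessels below the epithelium become more permeable at the attachment sites. Elongating pig conceptuses also secrete interferons, gamma more than delta, which act on the stroma and glands.

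The 3 pregnant Yorkshire sows did not form 1 group on the arrays. The first principal component of the 6 arrays held 55.8% of the variance, and pregnant sows 2 and 4 lay at 39.7 and 43.7 on it. Pregnant sow 12 lay at -9.9, close to the non-pregnant sows at -13.4, -28.3 and -31.8. The mean difference of 49 on this component had an exact permutation p of 0.1 (two-sided, n = 3 per group), which is the smallest that 3 against 3 can give. The array of sow 12 correlated most with that of non-pregnant sow 11 (r = 0.992 across probe sets), whereas those of sows 2 and 4 correlated most with each other (r = 0.991). On the second component, which held 20.5%, sows 11 and 12 lay at 18.7 and 26.7 and the other 4 between -22.8 and 0.422. The distance between 3' and 5' GAPDH control probes, a sign of RNA length, was 1.31 to 1.63 in non-pregnant and 1.49 to 1.59 in pregnant sows (exact permutation p = 0.4), and sow 12 was at 1.55. For the actin controls it was 1.07 to 1.37 in non-pregnant sows and 1.45, 1.38 and 1.01 in sows 2, 4 and 12 (exact permutation p = 0.8). On actin sow 12 was thus the lowest of the 6. Results are therefore given with and without sow 12. Leaving out the pregnant sow nearest to the non-pregnant ones widens differences by construction for every gene on which it lay between the groups.

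**Figure D1:**
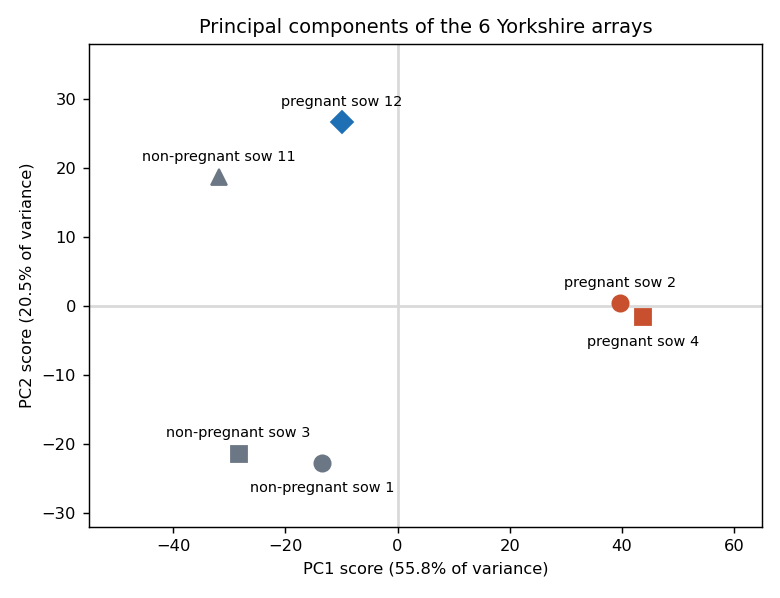
Scores of the 6 Yorkshire arrays on their first (x axis) and second (y axis) principal components, 1 point per sow, over 23999 probe sets. Pregnant sows 2 and 4 lie together at the right, at 39.7 and 43.7, while pregnant sow 12, at -9.9, lies to the left beside the non-pregnant sows.

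With all 3 pregnant sows, no probe set passed the threshold of an adjusted p under 0.05 in limma's test. The counts were 0 higher and 0 lower of 23999 (0% each), and the smallest adjusted p was 0.0557. At an unadjusted p under 0.05, 1707 probe sets were higher (7.11%) and 1960 were lower (8.17%) in pregnant sows. Of the 6765 genes, 719 (10.6%) were higher in every pregnant than in every non-pregnant Yorkshire sow and 926 (13.7%) were lower in every one. These genes are described below as not overlapping, and those shares are the background for every count of that kind with all 6 sows. Leaving out a sow cannot lower such a count, so the background rises too. Over all genes it was 15.4% higher and 22.8% lower without sow 1, and 13.5% and 15.2% without sow 2. It was 13.2% and 16.1% without sow 3, 12.7% and 17.1% without sow 4, and 15.8% and 20% without sow 11. The median difference over all genes was -0.04. Without sow 12, limma called 704 probe sets higher (2.93%) and 677 lower (2.82%), which included 231 genes higher (3.41%) and 308 lower (4.55%). Without it 1293 genes (19.1%) were higher and 2031 (30.0%) lower with no overlap, a count that 2 against 3 sows reach more easily. With all 6 sows, other fits gave other counts. Array weights, which are estimated from the scatter of these same arrays and were lowest for sow 12 (0.403), gave 1416 higher (5.90%) and 1726 lower (7.19%). Testing only the 12014 probe sets whose mean over the 6 Yorkshire arrays lay above the overall median gave 50 higher (0.416%) and 9 lower (0.0749%). A filter that asked for that level on at least 3 Yorkshire arrays kept 12213 probe sets and called 55 higher (0.450%) and 11 lower (0.0901%), but it can be passed through 1 group of 3 alone, and 8 of its 66 calls had no array of the other group above the median. The 6 Yorkshire arrays fitted alone gave 11 higher (0.0458%) and 0 lower, and the 4-group fit without Landrace sow 7 gave 32 (0.133%) and 3 (0.0125%). Counts without another Landrace sow are not given. In the unweighted 4-group fit of all sows and all probe sets, no gene below passed the threshold for pregnancy in Yorkshire, and the words "called without sow 12" mark those that passed it over the other 5 Yorkshire sows.

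The 15 genes with the smallest p among those higher without overlap spanned transport, secretion, antioxidant defence and autophagy. SLC39A2, a zinc importer of the cell membrane, measured 8.23, 8.81 and 9.14 in the non-pregnant and 10.76, 11.27 and 10.99 in pregnant sows 2, 4 and 12. Its difference was 2.28 (SE 0.32, adjusted p = 0.0557), a 4.84-fold difference, and sow 12 was as high as the other pregnant sows. TRPV6, the apical calcium channel of absorptive and secretory epithelia, stood at 6.96 to 7.31 in non-pregnant sows and at 11.23, 11.10 and 9.45 in sows 2, 4 and 12. Its difference of 3.50 (SE 0.59, adjusted p = 0.0609) corresponds to 11.3-fold, and sow 12 lay between the groups. SOD3, the secreted superoxide dismutase, measured 7.96 to 8.79 against 11.36, 11.38 and 10.20 (difference 2.65, SE 0.37, adjusted p = 0.0557). GPX3, the secreted glutathione peroxidase, measured 5.91 to 6.19 against 9.39, 7.97 and 8.08 (2.48, SE 0.42, adjusted p = 0.0609). Both enzymes act outside the cell, and neither overlapped between groups.

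The secreted proteins RBP4 and ACP5 were also among these 15. RBP4, which carries retinol to the conceptus, was at 11.27, 9.83 and 11.13 in non-pregnant and 13.26, 13.23 and 12.54 in pregnant sows (difference 2.27, SE 0.34, adjusted p = 0.0585). ACP5 encodes uteroferrin, the iron-binding acid phosphatase of pig histotroph, and was at 11.51, 11.18 and 11.89 against 13.20, 13.41 and 13.07 (1.70, SE 0.26). For ACP5 all 3 pregnant sows, sow 12 included, lay within a span of less than 1 log2 unit and above every non-pregnant sow. ITGB5, a vitronectin-binding integrin subunit, was tight in the non-pregnant sows at 7.87 to 7.97 and stood at 8.89, 9.08 and 8.50 in the pregnant sows (0.91, SE 0.13, adjusted p = 0.0585). TIE1, an endothelial receptor kinase, was at 5.82 to 6.13 against 6.56 to 6.91, and LIMS2, an adaptor of integrin adhesions, at 7.27 to 7.57 against 8.09 to 8.21. PDK4, the kinase that switches off pyruvate dehydrogenase, measured 8.22 to 8.41 against 10.10, 9.29 and 9.46 (1.27, SE 0.18, adjusted p = 0.0557). Of the 15, GABARAPL1, WIPI1 and RAB24 act in the autophagy and vesicle pathway, as a tag of autophagosome membranes, a protein that binds their precursor and a small GTPase. They were higher by 0.87, 0.90 and 0.95, with sow 12 the lowest pregnant sow for each. SLC25A33, a mitochondrial pyrimidine nucleotide carrier, was higher by 1.08 and ST6GAL1, a sialyltransferase of the Golgi, by 1.45. All 15 were called without sow 12, and all 15 also with all 6 sows among the probe sets kept by their mean level. The 15 had been chosen by their p on these same arrays, so these calls are no separate support. For GPX3 and TIE1, 0 non-pregnant and 3 pregnant sows lay above the overall median, so they passed that filter through the pregnant sows.

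Among genes lower in every pregnant sow, CCK was the largest of the 15 with the smallest p. CCK encodes cholecystokinin, a peptide hormone, and measured 8.13, 9.92 and 8.53 in non-pregnant sows and 5.44, 5.25 and 6.81 in sows 2, 4 and 12. The difference was -3.03 (SE 0.49, adjusted p = 0.0609), so that the non-pregnant mean was 8.15-fold higher, and sow 12 again lay between the groups. STOX1, a winged-helix DNA-binding protein, was at 5.56 to 5.87 against 3.71, 3.54 and 4.82 (-1.67, SE 0.32, adjusted p = 0.0824), with sows 2 and 4 under the lower quartile of their arrays. SNAP91, a clathrin assembly protein best known from nerve endings, was at 7.20 to 7.27 against 5.83, 5.74 and 6.32 (-1.27, SE 0.21, adjusted p = 0.0609). The non-pregnant sows differed by less than 0.1 on SNAP91 and every pregnant sow was lower by more than 0.8. ADK, which clears adenosine by phosphorylation, had a non-pregnant mean of 7.05 against 5.87, 5.65 and 6.55 in the pregnant sows (-1.03, SE 0.19). PDE3A, a phosphodiesterase that breaks down cyclic AMP, differed by -0.62, and TMEM117, a membrane protein, by -1.06.

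The other lower genes of the 15 included 3 mitochondrial ones. NDUFAB1, the mitochondrial acyl carrier protein and a subunit of complex I, measured 11.04, 11.46 and 10.77 against 9.90, 9.94 and 10.30 (-1.04, SE 0.17, adjusted p = 0.0609). ATPIF1, the inhibitor of the ATP synthase, differed by -0.88 and NDUFB10, another complex I subunit, by -0.48. AARS, which charges tRNA with alanine, stood at 9.38 to 9.56 against 8.46, 8.57 and 9.09 (-0.76, SE 0.14). MIF, a cytokine stored in epithelial cells, differed by -0.73 and SKA2, a spindle protein, by -0.81. HSPA8, the constitutive HSP70 chaperone, differed by -0.51 on its brightest probe set, but its other 3 probe sets all had the opposite sign, so its direction is uncertain. The uncharacterised genes LOC100157391 and LOC100515118 differed by -0.67 and -0.64. All 15 were called without sow 12. Among the probe sets kept by their mean level, 6 were called with all 6 sows: CCK, SNAP91, TMEM117, NDUFAB1, ADK and LOC100515118. These 15 too had been chosen by their p on the same arrays. For CCK, SNAP91 and ADK, 3 non-pregnant sows but only 1 pregnant sow lay above the overall median, and for TMEM117 3 and 2.

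**Figure D2:**
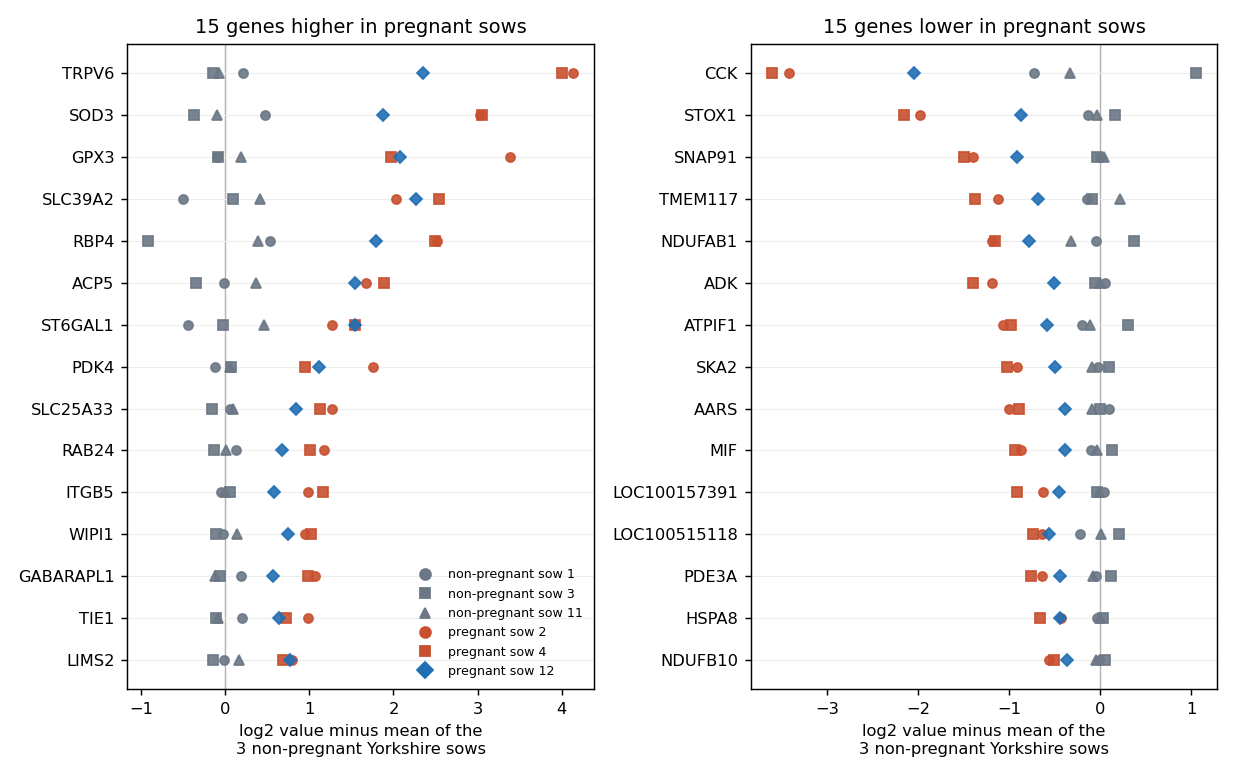
Each point is 1 Yorkshire sow, plotted as its log2 value minus the mean of the 3 non-pregnant Yorkshire sows (x axis), for the 15 genes higher (left) and 15 lower (right) with the smallest p among those whose groups do not overlap; genes are ordered by the mean difference. Pregnant sow 12 (blue diamonds) lies between the groups for TRPV6, SOD3 and CCK and level with sows 2 and 4 for SLC39A2, ST6GAL1 and LIMS2.

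Genes known to respond to conceptus oestrogen in pig luminal epithelium carried wide differences, and for them sow 12 stood apart from sows 2 and 4. Of the 16 measured members, 8 were higher and 1 was lower without overlap, and the median difference was 1.14 against -0.04 over all genes. The mean over the members, relative to the non-pregnant mean, was 1.83 and 1.84 in sows 2 and 4 and 0.492 in sow 12. Without sow 12, 15 members were higher and 1 lower without overlap (19.1% and 30.0% of all genes). Of the members, 10 were then called higher and 1 lower (3.41% and 4.55% of all genes). The counts describe the lists and test nothing. This list, like the others, was chosen with earlier results of these data known, so its wide differences are no separate support.

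NMB, which encodes the peptide neuromedin B, measured 8.80, 7.88 and 8.56 in non-pregnant sows and 12.56, 12.91 and 10.07 in sows 2, 4 and 12 (3.43, SE 0.68, adjusted p = 0.0876). MUC4, a membrane mucin, was at 4.63 to 5.19 against 8.06, 8.11 and 6.55 (2.69, SE 0.61). PTHLH, the parathyroid hormone-like hormone that regulates calcium transport, was at 4.46 to 4.91 against 6.69, 8.13 and 6.77 (2.52, SE 0.51, adjusted p = 0.0904). These 3 genes did not overlap between the groups, whereas STC1, LPAR3 and FGF7 did, because sow 12 was not high. STC1, a secreted glycoprotein hormone of mineral balance, was at 8.05, 7.64 and 6.57 against 11.71 and 10.38 in sows 2 and 4 but 7.37 in sow 12. LPAR3, a receptor for lysophosphatidic acid in the implantation window, was at 6.25 to 6.37 against 8.58 and 8.78 but 6.25 in sow 12. FGF7, a growth factor for trophectoderm, was at 5.48, 4.11 and 5.07 against 6.83 and 6.75 but 5.06 in sow 12. The adjusted p for these 3 genes was 0.215 to 0.238 with all sows and 0.00326 to 0.0291 without sow 12. All 3 were also called with array weights, which keep sow 12 at a low weight (adjusted p = 0.0101 to 0.0131). Those weights come from the scatter of these same arrays, so the weighted calls are no separate support.

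FGF9, another fibroblast growth factor, was at 4.97 to 5.56 against 6.75, 6.34 and 5.76 (0.99, SE 0.26). HSD17B2, which inactivates oestradiol to oestrone, was at 6.63, 6.11 and 6.58 against 7.99, 7.77 and 6.87 (1.10, SE 0.28). SPP1, or osteopontin, a ligand of integrins at the attachment surface, stood at 7.47, 7.46 and 8.10 in non-pregnant and 9.09, 8.41 and 8.83 in pregnant sows. Its groups did not overlap, but its SE of 0.99 comes from the spread of all 4 groups, and Landrace non-pregnant sow 7 stood at 12.23. IL11RA, the interleukin 11 receptor, was the member lower without overlap, at 10.63 to 11.14 against 9.44, 9.25 and 10.62 (-1.08, SE 0.35).

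The list mean of secreted proteins and protease inhibitors of histotroph differed as much in sow 12 as in the other pregnant sows. The named members RBP4, ACP5, TIMP2 and SERPINB7 did not share this, each being lowest in sow 12 among the pregnant sows. Of 28 measured members, 12 were higher and 0 lower without overlap, with a median difference of 0.297. The list mean was 0.588, 0.641 and 0.594 above the non-pregnant mean in sows 2, 4 and 12, and 5 members were called higher without sow 12. Beside RBP4 and ACP5, TIMP2, an inhibitor of matrix metalloproteinases, measured 11.75, 11.02 and 11.79 against 13.22, 13.44 and 12.74 (1.61, SE 0.32, adjusted p = 0.0876). SERPINB7, a serine protease inhibitor, was near the floor of the array in non-pregnant sows at 3.01 to 3.13 and stood at 8.10, 8.69 and 6.80 in pregnant sows, and no size is given for a difference from that floor. Its adjusted p was 0.0788 over all 12 arrays and 0.0412 in a fit of the 6 Yorkshire arrays alone. SLPI, a leukocyte protease inhibitor outside the lists, was at 9.12, 8.57 and 9.05 against 11.49, 12.06 and 11.16. SLPI too was called in the fit of the 6 Yorkshire arrays alone (difference 2.66, adjusted p = 0.0412). SLPI and other genes named here outside the naming rule were chosen after their values were seen.

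Adhesion genes tended upwards, while junction and keratin genes differed in both directions. Of 21 measured adhesion and integrin genes, 10 were higher and 0 lower without overlap with the values as deposited, and the list mean was 0.749, 0.753 and 0.401 in sows 2, 4 and 12. Centring each array on its median gave 10 higher and 1 lower. EMB, or embigin, an immunoglobulin-type adhesion protein that escorts lactate transporters, measured 4.88, 5.40 and 5.56 against 9.28, 9.86 and 6.30 (3.20, SE 0.71, adjusted p = 0.0981). ITGAV, the integrin alpha v subunit that pairs with ITGB5 and ITGB3, was at 8.48 to 8.93 against 9.37, 9.03 and 9.41. ITGB3 was at 5.07 to 5.41 against 6.38, 6.60 and 5.53, so sow 12 lay just above the non-pregnant sows for ITGB3 but not for ITGAV. Without sow 12, ITGB3, ITGB5, SELP, MUC4 and EMB were called higher.

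Of 14 measured junction and keratin genes, 2 were higher (14.3%) and 3 lower (21.4%) without overlap, against 10.6% and 13.7% of all genes. Differences lay above 0 for 7 members and below 0 for 7. Without sow 12 the counts without overlap were 4 and 7 (19.1% and 30.0% of all genes). CDH1, or E-cadherin, was at 10.26 to 10.60 against 11.03, 11.11 and 10.73, and CLDN4, a tight junction claudin, at 9.06 to 9.59 against 10.18, 10.31 and 9.80. CLDN10, an ion-selective claudin, was lower at 8.81, 8.94 and 9.99 against 10.55 to 10.84 (-1.43, SE 0.35). The keratins KRT8 and KRT18, filaments of simple epithelium, differed by -0.74 and -0.61. Sow 12 was the pregnant sow nearest the non-pregnant level for each of these 5 genes. EPCAM, a membrane marker of epithelium, was at 11.48 to 11.69 in non-pregnant and 11.52 to 11.63 in pregnant sows. The mean level of the 13 epithelial markers was 9.57 to 9.71 in non-pregnant and 9.46 to 9.67 in pregnant sows. In bulk tissue a lower value can mean fewer cells of a type or less RNA per cell, which cannot be told apart.

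Endothelial genes were higher in all 3 pregnant sows. Of 11 measured markers of endothelium, 9 were higher without overlap and 0 lower, with a median difference of 0.781, and 5 were called higher without sow 12. The list mean stood 0.885, 0.704 and 0.51 above the non-pregnant mean in sows 2, 4 and 12, while the non-pregnant sows ranged from -0.218 to 0.17. PECAM1, an adhesion protein of endothelial junctions, measured 7.99, 7.72 and 8.22 against 9.27, 9.06 and 8.67. CDH5, or VE-cadherin, was at 7.59, 7.08 and 8.11 against 8.98, 8.70 and 8.55, and TEK, the angiopoietin receptor, at 6.36 to 6.54 against 7.72, 7.40 and 7.07 (0.96, SE 0.20, adjusted p = 0.0949). VWF, the clotting factor stored in endothelial cells, had a non-pregnant mean of 7.46 and stood at 8.56, 8.44 and 8.46 in the pregnant sows, which were nearly level.

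The list of angiogenesis and permeability genes, which shares KDR, TEK and TIE1 with these markers, had 9 of 21 higher and 0 lower without overlap. Without sow 12 it had 14 and 0 (19.1% and 30.0% of all genes). NOS3, the endothelial nitric oxide synthase, was at 5.94 in each non-pregnant sow and at 6.31, 6.38 and 6.52 in the pregnant sows (0.46, SE 0.10, adjusted p = 0.0949). S1PR1, a sphingosine phosphate receptor that tightens vessel walls, was at 7.82 to 8.15 against 8.82, 9.08 and 8.81. ADM, or adrenomedullin, a dilator of vessels, was at 6.58 to 6.77 against 7.70, 7.73 and 7.35. VEGFA, the main endothelial growth factor, measured 9.08 to 9.43 against 9.37 to 9.57 and overlapped (0.19, SE 0.13, adjusted p = 0.56). KDR, its main receptor, was at 4.83 to 4.93 against 5.78, 5.74 and 5.12, without overlap and with sow 12 the lowest pregnant sow.

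Of 31 measured matrix genes, whose median difference was 0.282, 7 were higher and 0 lower without overlap, among them COL4A2, a basement membrane collagen (9.56 to 10.47 against 11.05, 11.10 and 10.71), and MMP2, a gelatinase (10.74 to 10.93 against 11.27, 11.35 and 11.17). Leaving out non-pregnant sow 11 raised the count of 7 to 18 (15.8% of all genes), and leaving out pregnant sow 12 raised it to 12 (19.1%). Of 10 markers of stromal fibroblasts 4 were higher without overlap, with THY1 at 8.08 to 8.29 against 9.24, 10.09 and 9.06 and VIM, or vimentin, at 11.84 to 12.13 against 12.58, 12.75 and 12.47. The stromal list mean was 0.203, 0.427 and 0.0988 in sows 2, 4 and 12, and non-pregnant sow 11 reached 0.145. Of 9 smooth muscle markers 3 were higher without overlap and 0 lower. The part of these cell type markers in the other gene groups was not tested.

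S100A9 is a calcium-binding alarmin of neutrophils and stressed epithelium. It measured 3.16, 3.91 and 3.58 in non-pregnant sows, all under the lower quartile of their arrays (4.58 to 4.71), and 12.56, 12.79 and 7.72 in sows 2, 4 and 12. Its adjusted p was 0.092 with all sows, and no size of the difference is given because the non-pregnant level is at background. Its partner S100A8 was at 4.11 to 5.01 against 8.42, 7.77 and 4.57, and S100A12 at 4.08 to 4.40 against 6.37, 6.95 and 4.13, so both were at the non-pregnant level in sow 12. All 3 were called higher without sow 12. These 3 genes are among the 6 measured neutrophil markers, of which 2, S100A9 and LTF, were higher without overlap, and whose mean level was 4.38 to 4.72 in non-pregnant and 5.22 to 7.19 in pregnant sows. The granule genes ELANE and PRTN3 stood at 5.06 to 5.45 against 5.02 to 5.53 and at 5.54 to 5.91 against 5.66 to 5.83. LTF, or lactoferrin, was under the lower quartile on all 6 arrays, at 3.93 to 4.19 against 4.22 to 4.27. The part of neutrophils in the S100 values was not tested.

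Among 30 measured genes of complement and innate defence, 13 were higher and 2 lower without overlap, and 4 were called higher and 2 lower without sow 12. The list mean was 0.581, 0.802 and 0.562 above the non-pregnant mean in sows 2, 4 and 12. C1R, C1S, C4A and SERPING1, picked from the list after their values were seen, were highest in sow 12. C1R and C1S, the proteases of the first complement component, measured 9.05 to 9.88 and 9.36 to 10.32 in non-pregnant sows. In sows 2, 4 and 12 they stood at 10.05, 10.59 and 11.13 and at 10.43, 10.94 and 11.62. C4A, the next protein of that cascade, was at 8.22 to 9.51 against 9.56, 10.46 and 10.87, and SERPING1, the inhibitor of C1, at 9.10 to 9.72 against 10.01, 10.31 and 10.87. CFD, the protease of the alternative pathway, had the other order, at 8.48 to 8.76 against 10.38, 10.34 and 9.27 (1.40, SE 0.31, adjusted p = 0.0981). DEFB1, an epithelial defensin, was lower at 7.36, 8.12 and 11.07 against 11.20 to 11.81, so sow 12 lay barely below the non-pregnant sows. CD59, a membrane shield against complement, was also lower, at 10.49, 10.48 and 11.19 against 11.33 to 11.51.

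Interferon-stimulated genes varied widely among the pregnant sows, from the lowest list mean in sow 2 to the highest in sow 12. Of 23 measured genes 5 were higher without overlap and 0 lower, with a median of 0.0682, and the list mean was -0.524, 0.403 and 0.868 in sows 2, 4 and 12. Those 5 were CXCL9, GBP1, GBP2, IRF1 and IRF2, and most of them are known as targets of gamma interferon. GBP1, a guanylate-binding protein, was at 6.54 to 7.32 against 7.96, 10.54 and 11.26 (2.89, SE 1.32, adjusted p = 0.327). IRF1, a transcription factor, was at 7.39 to 7.78 against 8.02, 9.88 and 9.71. Genes best known for type I interferon had other values. MX1, an antiviral GTPase, was at 9.96, 10.14 and 10.85 against 8.61, 9.74 and 10.55, and ISG15, a ubiquitin-like protein, at 9.72 to 10.51 against 7.71, 9.68 and 10.07. Without sow 12, 9 members were lower and 5 higher without overlap (30.0% and 19.1% of all genes), and 0 were called in either direction. Without sow 2 the list had 10 higher and 0 lower (13.5% and 15.2% of all genes). Without non-pregnant sow 3 it had 9 and 0 (13.2% and 16.1% of all genes). The sign of the list median therefore depended on the sow left out, from -0.225 without sow 12 to 0.338 without sow 2. IFNG itself, the gamma interferon gene, was at 3.73 to 4.18 in non-pregnant and 4.00 to 4.20 in pregnant sows, under the lower quartile on all 6 arrays.

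Antigen presentation genes had the same order of the pregnant sows, with list means of 0.132, 0.496 and 0.855 in sows 2, 4 and 12. Of 22 measured genes 10 were higher and 1 lower without overlap, with a median of 0.585. Without sow 2 the count was 16 higher (13.5% of all genes). None was called in the unweighted 4-group fit, with or without sow 12. SLA-3, a class I gene, measured 9.66, 9.64 and 9.51 against 11.33, 11.33 and 11.02 (1.62, SE 0.39, adjusted p = 0.115). In the fit of the 6 Yorkshire arrays alone its adjusted p was 0.0387, and with array weights it was 0.0109. SLA-2 was at 11.62 to 11.77 against 12.30 to 12.34, and both class I genes were nearly level across the 3 pregnant sows. B2M, the light chain of class I, overlapped on its brightest probe set, at 13.48 to 13.76 against 13.30 to 13.71. That difference was -0.05, but only 3 of its other 8 probe sets shared the sign. With the median of all its probe sets the B2M difference was 0.679. Of the class II pathway, CD74, the invariant chain, was at 8.34 to 8.64 against 9.05, 9.24 and 10.28, and SLA-DRA at 9.15 to 9.58 against 9.63, 10.02 and 10.96, with sow 12 the highest. SLA-DMA, a chain of the peptide loader of class II, was the list's member lower without overlap, at 9.06 to 9.23 against 8.79, 8.69 and 9.02, and its other probe set had the opposite sign. Its partner chain SLA-DMB was higher without overlap, at 6.63 to 7.04 against 7.20, 7.55 and 8.41. Class I genes of the pig are close copies, and probe sets may share signal between them. Of 32 chemokines, interleukins and receptors, 10 were higher and 3 lower without overlap, with IL1A, a cytokine precursor, at 6.21, 5.89 and 6.87 against 6.96 to 7.66. The 9 macrophage markers had 2 higher and 1 lower, and the 14 T and NK cell markers 1 higher (CD247) and 0 lower. The T and NK list had 5 higher without non-pregnant sow 3 (13.2% of all genes). It had 3 higher without sow 1 or sow 12 (15.4% and 19.1% of all genes). CD3E, the defining T cell marker, was at 5.16 to 5.92 against 5.57 to 5.82.

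**Figure D3:**
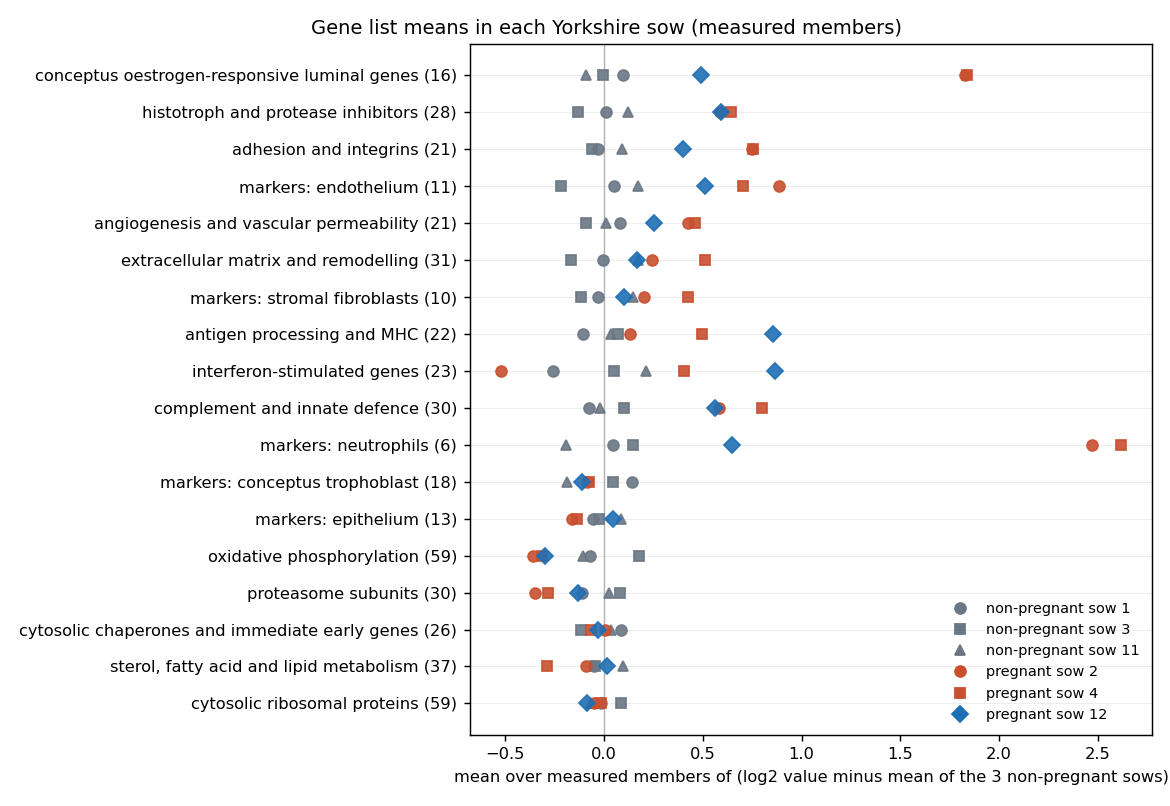
Each point is the mean over the measured members of a gene list (member count in parentheses) of the log2 value minus the mean of the 3 non-pregnant Yorkshire sows (x axis), 1 point per sow. Sow 12 (blue diamonds) lies far below sows 2 and 4 for the oestrogen-responsive list (0.492 against 1.83 and 1.84), level with them for histotroph and oxidative phosphorylation, and above them for antigen presentation and interferon-stimulated genes.

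Genes of oxidative phosphorylation were lower in all 3 pregnant sows by a similar amount. Of 59 measured genes of the respiratory complexes, 37 (62.7%) were lower without overlap, against 13.7% of all genes, and 2 were higher. The list mean was -0.358, -0.316 and -0.297 in sows 2, 4 and 12 and -0.0694, 0.175 and -0.105 in non-pregnant sows 1, 3 and 11. Sow 12 did not stand apart here, and the median difference of -0.349 became -0.366 without it. Leaving out 1 Yorkshire sow cannot lower such a count, and the 37 became 37 to 47. Over all genes the count of 926 lower became 1026 to 2031 (15.2% to 30.0%). After cyclic loess normalization 29 of the list were lower without overlap, against 12.7% of all genes, with a list median of -0.279. NDUFAB1 had the widest difference, given above, and 8 of the 59 were called lower without sow 12.

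All respiratory complexes were represented. In complex I, NDUFA8 measured 9.17, 9.43 and 9.15 against 8.60, 8.73 and 8.80 (-0.54, SE 0.11, adjusted p = 0.0949). NDUFS1, the largest subunit of the electron input module, was at 8.63, 8.91 and 8.86 against 8.15, 8.40 and 8.49. All 4 genes of complex II, SDHA, SDHB, SDHC and SDHD, were lower without overlap, by -0.17 to -0.54. In complex III, UQCR10 was at 10.65 to 11.22 against 10.44 to 10.53, and in complex IV, COX5B at 11.34 to 11.59 against 11.14 to 11.16. In the ATP synthase, ATP5A1, the alpha subunit, was at 11.35, 11.40 and 11.61 against 10.85, 11.01 and 11.29. Non-pregnant sow 3 had the highest list mean of the 6 sows, and without it the list median was -0.262. NDUFA1 was a clear exception, at 10.63 to 10.71 against 11.53, 11.06 and 11.38, but its other probe set had the opposite sign. NDUFV3 was the other, with 6.37 to 6.47 against 6.59 to 6.75.

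**Figure D4:**
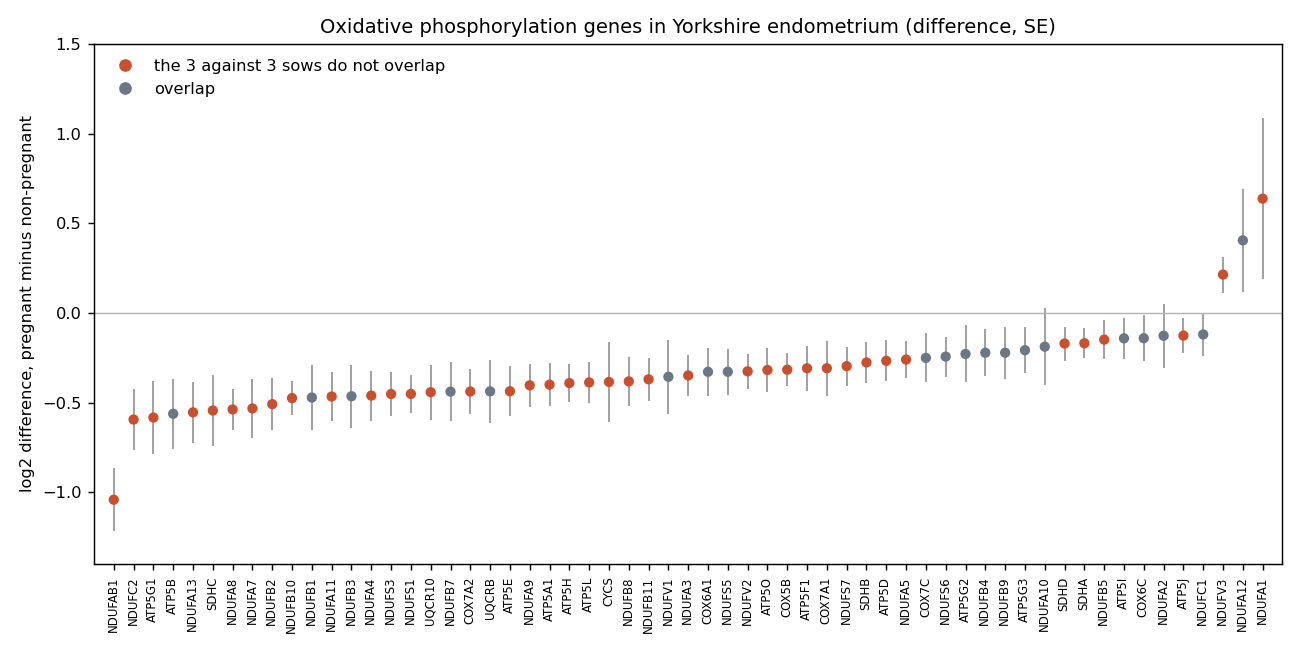
Log2 difference between the 3 pregnant and 3 non-pregnant Yorkshire sows (y axis, bars show the SE of the limma fit) for the 59 measured genes of oxidative phosphorylation, ordered by difference. Of these, 56 lie below 0, 37 of them with no overlap between the groups (orange).

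Proteasome genes were lower too: all 30 measured subunits had a difference below 0 with the values as deposited, 13 of them without overlap (43.3%). After cyclic loess 28 were below 0 and 11 did not overlap. The count of 13 became 21 without non-pregnant sow 1, when 22.8% of all genes were lower. It became 25 without pregnant sow 12, when 30.0% of all genes were. PSMB6, a catalytic subunit, measured 9.71, 9.95 and 9.62 against 9.17, 9.14 and 9.31 (-0.55, SE 0.12, adjusted p = 0.0949). PSMD1, a scaffold of the regulatory cap, was at 9.23 to 9.54 against 8.93, 8.93 and 8.98. The list mean was -0.352, -0.285 and -0.133 in sows 2, 4 and 12, and non-pregnant sow 1 stood at -0.11. Of 26 cytosolic chaperones and immediate early genes, 11 were lower and 4 higher without overlap. The lower ones were mostly chaperones, such as HSPB1, a small heat shock protein (11.06 to 11.61 against 10.50, 10.12 and 10.99), and HSPA4, of the HSP110 family (8.84 to 9.33 against 8.11, 7.95 and 8.75). The 4 higher ones were BAG3, a chaperone partner, and the early response genes FOSL2, GADD45B and IER3. IER3 was at 7.32 to 8.50 against 10.38, 10.06 and 8.87. With all sows, cytosolic ribosomal proteins (0 higher and 6 lower of 59, 10.2%) and genes of the endoplasmic reticulum (1 higher and 3 lower of 37) had shares of non-overlapping genes below those of all genes in both directions. For the ribosomal list the count of 6 lower ranged from 1 after cyclic loess (12.7% of all genes) to 23 without non-pregnant sow 11 (20%). The ribosomal median stayed below 0, from -0.092 to -0.0162. For the endoplasmic reticulum list, leaving out non-pregnant sow 1 gave 10 lower (22.8% of all genes). Leaving out non-pregnant sow 11 gave 7 higher (15.8% of all genes), and the list median was 0.0108 after cyclic loess. RMA gives the arrays like distributions, and a difference here says only how a gene stood within its array.

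Fuel genes differed in both directions. SLC2A1, the main glucose transporter, measured 7.77, 7.42 and 7.85 against 9.63, 10.17 and 9.07 (1.94, SE 0.34, adjusted p = 0.0628) and was called with all 6 sows among the probe sets kept by their mean level (adjusted p = 0.0392). KMO, an enzyme of tryptophan breakdown, was at 6.14 to 6.64 against 9.18, 8.16 and 8.93 (2.38, SE 0.54). BCAT1, which starts the breakdown of branched amino acids, was lower at 7.20, 7.63 and 8.60 against 8.89 to 9.15. ODC1, the first enzyme of polyamine synthesis, was lower at 9.43, 9.26 and 9.67 against 10.31 to 10.82, and the spermine and spermidine synthases SMS and SRM were lower without overlap by -0.70 and -0.25. Over 33 measured genes of glucose, amino acid and polyamine handling, 6 were higher and 8 lower without overlap. Without sow 12 the counts were 11 and 10 (19.1% and 30.0% of all genes).

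Among 37 lipid genes 4 were higher and 8 lower without overlap, and without sow 12 the lower ones numbered 17 (30.0% of all genes). The lower ones included the sterol synthesis genes HMGCS1 (8.55 to 8.94 against 7.28, 7.14 and 8.32), SQLE, SC5D and FDFT1. The higher ones were APOE, a carrier of lipids (10.08 to 10.30 against 10.53 to 10.69), LPL, ACSL1 and ACSL4. Of 36 lysosomal genes 12 were higher and 5 lower without overlap, and all 5 lower ones were subunits of the proton pump, such as ATP6V0D2 (7.93 to 8.39 against 6.66, 6.69 and 7.43). The higher ones were hydrolases and their helpers, among them PSAP, the precursor of the saposins (11.16 to 11.44 against 12.23, 12.28 and 11.65), whose other probe set had the opposite sign, and CTSC, a cathepsin (8.18 to 8.30 against 9.36, 9.76 and 8.99). After cyclic loess the list had 14 higher and 2 lower.

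Among water and sodium transport genes, members of a family stood on opposite sides. AQP3, a water and glycerol channel, measured 11.60, 11.59 and 12.16 in non-pregnant and 9.47, 8.35 and 11.19 in sows 2, 4 and 12 (-2.11, SE 0.70, adjusted p = 0.192). AQP1, the water channel of vessels, was the reverse, at 8.56 to 8.82 against 9.65, 9.48 and 9.39. ATP1B1, a beta subunit of the sodium pump, was lower at 9.05, 8.96 and 10.64 against 11.11 to 11.57, while ATP1B3, another beta subunit, was higher at 11.02, 11.50 and 10.58 against 9.85 to 10.26. Over the 26 transport genes, 6 were higher and 5 lower without overlap. Without sow 12 the counts were 10 and 8 (19.1% and 30.0% of all genes). Of 33 redox genes 8 were higher and 7 lower. Beside SOD3 and GPX3 the higher ones were FTH1, FTL, HMOX1, CAT, NQO1 and GCLC, the rate-limiting enzyme of glutathione synthesis (6.95 to 7.28 against 9.03, 8.83 and 7.46). SOD1, the cytosolic superoxide dismutase, was among the lower ones, at 10.37 to 10.58 against 10.21 to 10.22.

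Of 17 measured steroid genes 4 were higher (23.5%) and 2 lower (11.8%) without overlap: HSD17B2, described above, HSD11B1, AKR1C1 and the glucocorticoid receptor NR3C1, and ESR1 and HSD17B8. AKR1C1 was under the lower quartile on all 6 arrays, and without sow 12 the counts were 6 and 4 (19.1% and 30.0% of all genes). PGR, the progesterone receptor, was at 6.65 to 6.84 in non-pregnant and 6.58 to 6.75 in pregnant sows (-0.09, SE 0.11, 95% interval -0.32 to 0.15). ESR1, the oestrogen receptor, was lower without overlap at 7.29 to 7.93 against 6.77, 7.15 and 7.13 (-0.53, SE 0.20, adjusted p = 0.239). PTGS2, the inducible prostaglandin synthase, was at 7.07, 6.17 and 7.36 against 6.73, 7.33 and 6.89, so the groups overlapped fully (0.12, SE 0.30). PTGES, which makes prostaglandin E2, was at 7.99 to 8.40 against 7.50, 7.55 and 8.16. OXTR, the oxytocin receptor, was at 5.37 to 5.56 against 5.51 to 5.82. None of the 10 measured genes on the list of prostaglandin synthesis and action was free of overlap. Without sow 12 limma called 2 of them, the lysophosphatidic acid receptors LPAR3 (higher) and LPAR2 (lower), and no other member.

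Among 28 growth factor genes 5 were higher and 2 lower without overlap. The counts were 9 and 5 without non-pregnant sow 1 (15.4% and 22.8% of all genes). They were 8 and 4 without sow 12 (19.1% and 30.0% of all genes). IGFBP2, which binds insulin-like growth factors, had the widest difference, at 6.45, 6.18 and 6.74 against 8.05, 9.47 and 7.97 (2.04, SE 0.40, adjusted p = 0.0846). IGF1 overlapped, at 9.74 to 10.17 against 9.76 to 10.34. LIF, the leukaemia inhibitory factor, was at background in non-pregnant sows and stood at 5.77 and 5.92 in sows 2 and 4 but 4.47 in sow 12. Of 26 cell cycle genes 2 were higher and 0 lower, and 8 and 2 without sow 12. Of 36 WNT, TGF-beta, HOX and SOX regulators 8 were higher and 7 lower, and 14 and 10 without sow 12. For both lists the shares of all genes without sow 12 were 19.1% higher and 30.0% lower. FOXA2, the transcription factor of uterine glands, was lower at 9.26, 8.92 and 9.68 against 10.10 to 10.36 (-0.92, SE 0.21, adjusted p = 0.101). FZD4, a WNT receptor, was higher at 8.37, 8.51 and 7.97 against 7.60 to 7.69.

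Markers of conceptus trophoblast, which could have stayed on the tissue, stood near their non-pregnant levels. Of 18 measured trophoblast genes 1 was higher and 2 lower without overlap, and their mean level was 5.53 to 5.86 in non-pregnant and 5.60 to 5.64 in pregnant sows. CYP19A1, the aromatase, was at 4.80 to 5.51 against 5.08 to 5.31, and CYP17A1, an androgen-making enzyme, at 4.96 to 5.21 against 4.88 to 5.14. CYP11A1 was the member higher without overlap, at 3.49 to 3.66 against 3.68 to 3.88, under the lower quartile on all 6 arrays. KRT8 and GATA2, the members lower without overlap, are also expressed by endometrial cells. The 4 markers of B and plasma cells, 4 of red blood cells and 3 of lymphatic endothelium had 0 without overlap in either direction. The 4 of glandular and ciliated epithelium had 1 lower (FOXA2), and the 3 of mast cells and eosinophils 1 higher (KIT) and 1 lower (GATA2).

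In the Landrace sows, which share the estimate of the spread but no array with this contrast, 132 probe sets were called higher (0.550%) and 115 lower (0.479%) at Day 14. Leaving out 1 Landrace sow moved these counts between 5 (without sow 10) and 309 (without sow 8) higher. The difference between the breeds' pregnancy effects was called for 0 probe sets in either direction (0%), and 449 higher and 514 lower had an unadjusted p under 0.05. For SLC2A1, GPX3 and ITGB5 the Landrace differences of 1.88, 2.72 and 0.81 were called in that breed and lay beside 1.94, 2.48 and 0.91 in Yorkshire. For RBP4 the Yorkshire difference of 2.27 stood beside 0.33 in Landrace (interaction adjusted p = 0.961). The pregnant sows of both breeds were at 12.54 to 13.31, and the non-pregnant sows were at 9.83 to 11.27 in Yorkshire and 12.57 to 13.01 in Landrace. For CCK, non-pregnant Yorkshire sows were at 8.13 to 9.92 and non-pregnant Landrace sows at 5.64 to 6.01, and the differences were -3.03 and -0.23 (interaction adjusted p = 0.961). ACP5 and CFD likewise had lower non-pregnant levels in Yorkshire than in Landrace, 11.18 to 11.89 against 12.71 to 13.52 and 8.48 to 8.76 against 9.47 to 10.58. For these 4 genes the pregnant ranges of the breeds overlapped and the non-pregnant ranges did not.

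Of the 5 genes with the smallest interaction p, HSD17B2 had the widest opposition. Its Yorkshire values are given above, and in Landrace it stood at 6.74, 7.14 and 6.97 in non-pregnant and 5.06, 5.72 and 5.64 in pregnant sows. The pregnancy difference was 1.10 in Yorkshire and -1.48 in Landrace, and the difference between them was 2.57 (SE 0.39, adjusted p = 0.444). MCUB, a subunit of the mitochondrial calcium uniporter, and LOC100739163 had 0.53 and 0.70 in Yorkshire against -0.30 and -0.91. PTGFR, the receptor for prostaglandin F2 alpha, and DHRS7, a reductase, differed mainly in Landrace, by 1.21 and -1.16, and by -0.16 and -0.10 in Yorkshire. These 4 had an adjusted interaction p of 0.919. IFNG, at background in all Yorkshire sows, stood at 8.21, 4.26 and 12.65 in pregnant Landrace sows 6, 8 and 10.

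**Figure D5:**
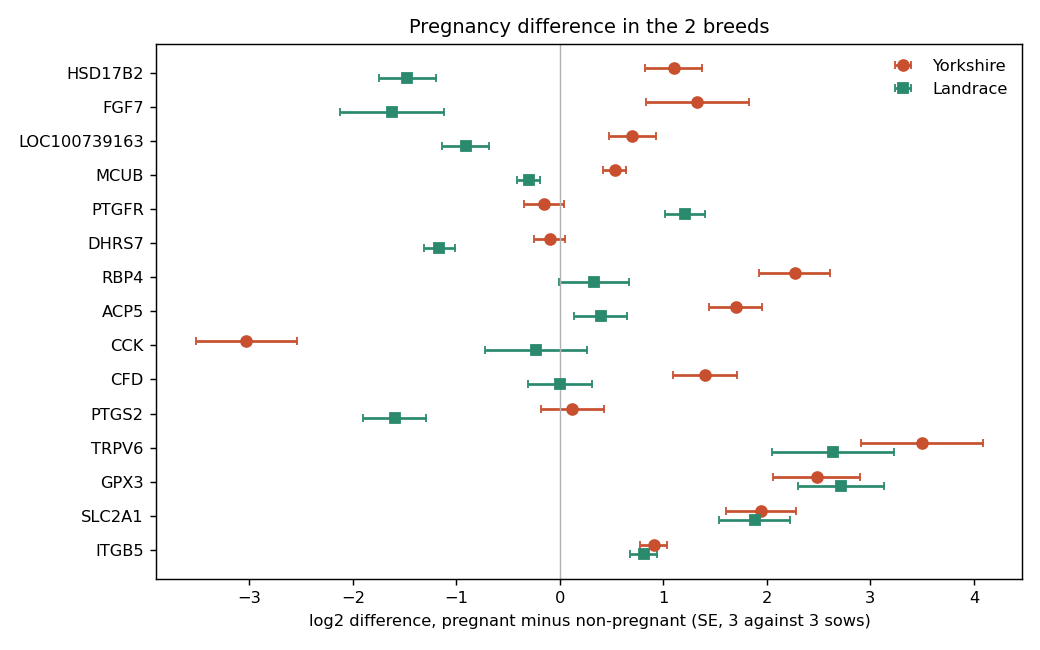
Log2 difference between pregnant and non-pregnant sows (x axis, bars show the SE of the limma fit, 3 against 3 sows in each breed) in Yorkshire (orange circles) and Landrace (green squares) for 15 named genes. Both breeds lie close together for GPX3, SLC2A1 and ITGB5, while HSD17B2 and FGF7 lie on opposite sides of 0; no interaction passed the threshold.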

How the data were processed

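The deposited values are log2 intensities per probe set from Affymetrix porcine arrays, and the submitters' processing notes name RMA, affy and limma without versions. RMA makes the distributions of the arrays alike, so differences are relative within an array. Of 24123 probe sets, 124 manufacturer controls were left out and 23999 tested. The number of arrays limits the precision.

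With limma 3.58.1 (lmFit, eBayes) under R 4.3.3, all 12 arrays entered a model of 4 groups, breed by pregnancy, with 8 residual degrees of freedom. Tests were two-sided, and the Yorkshire contrast was adjusted by Benjamini-Hochberg over all probe sets with a threshold of 0.05. Fold values are differences raised from the log2 scale. Symbols came from the platform annotation (10069 probe sets with 1 symbol, 198 with several, 13732 with none), and RefSeq of Sscrofa11.1 changed 0. The probe set with the highest Yorkshire mean stood for a gene. Of 1153 list names, 779 were measured, on 25 lists of roles and 13 of cell types. Named genes were the 15 higher and 15 lower with the smallest p among those without overlap (none was called), 2 of each list with the smallest p, a fixed set, and 5 for the interaction. Others were chosen after their values were seen. Members and lists were chosen with earlier results of these data known. The procedure was tested on simulated data.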

Additional observations from a re-analysis of the deposited data

Results flagged for a closer look

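For 7 named genes every pregnant Yorkshire sow lay on one side of the mean of its own non-pregnant group and every pregnant Landrace sow on the other side. The values below are the Yorkshire minus the Landrace pregnancy difference on the log2 scale, from limma's 4-group fit. FGF7 had 2.95 (1.33 against -1.62, interaction adjusted p = 0.961), although sow 12 stood within the range of the non-pregnant Yorkshire sows. HSD17B2 had 2.57 (1.10 against -1.48, adjusted p = 0.444). SPP1 had 2.06 (1.10 against -0.95, adjusted p = 1), and Landrace non-pregnant sow 7 stood at 12.23. LOC100739163 had 1.61 and MCUB 0.83, each with an adjusted p of 0.919. CD79B had 0.48 and MARCO 0.29, markers of B cells and macrophages, each with an adjusted p of 1. CD79B was under the lower quartile on all 6 Yorkshire arrays (3.78 to 4.26), so its value compares background levels. No interaction passed the threshold.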

How the results depend on the processing

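The count of 0 called in Yorkshire was 0 in both directions under cyclic loess, median centring and an intensity trend with a robust prior. Both stricter thresholds could only give 0 again. The 6 Yorkshire arrays alone gave 11 higher and 0 lower. Leaving out dim probe sets gave 55 and 11, keeping those with a mean level above the median (chosen after seeing the data) 50 and 9, array weights 1416 and 1726 (sow 12 had the lowest weight, 0.403), and the 6 Yorkshire arrays without sow 12, an alternative chosen after seeing the data, 996 and 912. Leaving out 1 Yorkshire sow gave 0 to 704 higher and 0 to 677 lower: the highest counts were without sow 12, and 0 came without any other Yorkshire sow. Of the Landrace sows, this count is given only without sow 7, which gave 32 and 3, so the range over all left-out sows is not known. The interaction had 0 to 16 higher and 0 to 2 lower (the highest without sow 12, 1 without Landrace sow 5), and 2 and 0 with array weights. Landrace counts ranged from 5 to 309 higher and 8 to 246 lower as Landrace sows 10 or 8 were left out. Of the 112 named genes, 67 were called without sow 12, 82 with array weights, 24 of 98 without dim probe sets, 22 of 95 by mean level, 11 without Landrace sow 7 and 2 in the 6 Yorkshire arrays alone. The sign turned for 9 genes near 0 when sows were left out. The 4-group fit of all arrays called no probe set for pregnancy in Yorkshire, so it does not set these genes apart. Over the left-out sows B2M ranged from -0.135 to 0.0699, CAPS from -0.221 to 0.0620, CYP19A1 from -0.231 to 0.124, DHRS7 from -0.167 to 0.00179, HIF1A from -0.246 to 0.0294, IFNG from -0.0565 to 0.170, IGF1 from -0.118 to 0.170, LYVE1 from -0.0204 to 0.0814 and PTGS2 from -0.228 to 0.365. In the 6 Yorkshire arrays without sow 12 B2M was 0.0699, CYP19A1 0.0168, DHRS7 0.00179 and LYVE1 -0.0204. B2M was 0.0402 with array weights, and as the median of all probe sets B2M was 0.679, CYP19A3 0.0764 and HSPA8 0.410, although HSPA8 on its brightest probe set was called lower without sow 12 (adjusted p = 0.0227) and, like CYP19A3 (0.0344), with array weights (0.00741). Why these values turned was not tested. No paired analysis was made, because the labels do not say whether sows with adjacent numbers were pairs. The arrays of sows 11 and 12 correlated most with each other (r = 0.992). The labels do not say whether those 2 sows were processed together, and a pair or batch effect was not tested. Precision is limited by 3 sows per group, and values under the lower quartile hold mostly background.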
